A study of Mus musculus with 16 samples.

Results

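The 144 features described here stood higher in wild-type mouse regulatory T cells after 8 h of stimulation through CD3 than before it, and were still higher at 24 h. They were picked from 27802 measured features by the deposited normalised counts. A member has a mean of at least 50 over all 16 libraries, a mean at 8 h in wild type (WT) of at least 1.5 times that at 0 h, and both WT libraries of 8 h and of 24 h above both WT libraries of 0 h. The mean limit alone leaves 8388 features, of which the members are 1.72%. Libraries of the Sh2d2a knockout (KO) enter only the mean limit. What WT libraries of 0, 8 and 24 h show of the members is therefore a description of how they were chosen, and tests are given only for KO changes and for the genotypes at 2 h.

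The cells were sorted from the spleen as CD4+ with high CD25, from C57BL/6 mice, wild type or with Sh2d2a knocked out, matched for sex and age. They were taken without stimulation (0 h) or after 2, 8 or 24 h on plate-bound antibody to CD3 (clone 145-2C11, 1 µg/ml). Each of the 8 groups has 2 libraries of polyadenylated RNA. Whether the libraries of a group stem from different animals is not labelled, so each p rests on a spread between libraries that may be technical. No library held cells kept in culture without the antibody, so time in culture and stimulation cannot be told apart. In bulk RNA, fewer cells holding a transcript and less of it per cell cannot be told apart either. Recovered depth was 2726097 to 10229138 reads in the WT libraries and 2065662 to 5907998 in the KO libraries, and a count of 0 allows up to 3 reads, or a normalised count of 1.3 to 6.55, counting error only.

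The identifiers listed in the files do not go with the values beside them, so the members have no gene names. Foxp3 encodes the lineage factor of these cells, and the row listed under it had normalised counts of 0 to 2.53, that of Cd4, the marker of the sort, 0 to 1.27, and that of Sh2d2a itself 0 to 4.22, WT included. Not all such rows were low. A mean under 10 was found in 2 of 7 rows listed under regulatory T cell genes and 1 of 7 under T cell genes. It was found in 1 of 3 under B cell genes and 0 of 2 under myeloid genes. Both rows under erythroid genes and both under Cd8a and Cd8b1, of other T cells, also had a mean under 10. Means were 889 for Cd3d and 272 for Lck among T cell genes, but also 1057 for Cd79a of B cells and 375 for Csf1r of myeloid cells. Neither the cell type nor the knockout can be checked in that way. None of the 12 rows listed under genes of the T-cell-receptor response (Egr1, Nr4a1 and others) is a member, and 4 of the 12 had a mean under 10, which says nothing about those genes. Members are numbered F1 to F144 by falling ratio of the WT means at 8 h and 0 h. Where 2 values are given for a group, they are its replicates 1 and 2. Normalised counts are not corrected for transcript length, so levels are compared only within a feature.

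As background, antibody to CD3 engages the T-cell receptor complex and starts signalling through the kinase Lck, whose partner TSAd is the product of Sh2d2a. Such stimulation is known to switch on short-lived early response genes first, and genes of metabolism, growth and effector function later. Regulatory T cells respond to the receptor in this way too, and need its signals for their suppressive function. Which of these classes a member belongs to cannot be told from the files.

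In WT the median member stood higher at each later time. In KO it stood near its starting level at 2 h and a little above it at 8 and 24 h. In WT the median member stood, against its WT mean at 0 h, at a log2 difference of 0.38 and 0.35 in the libraries of 2 h, 0.82 and 0.80 at 8 h, and 1.09 and 0.90 at 24 h. The times did not overlap, and the 2 libraries of 2 h and of 8 h lay close together. Those of 24 h lay further apart than the lower of them lay from the libraries of 8 h. Against the same WT baseline, the KO libraries gave 0.24 and 0.24 at 0 h, 0.29 and 0.25 at 2 h, 0.37 and 0.38 at 8 h, and 0.40 and 0.35 at 24 h. All KO libraries thus lay between the WT levels of 0 h and 8 h. The WT libraries of 0 h are the low side of the rule and those of 8 and 24 h its high side. The place of the KO libraries between them is therefore no result. For features of mean 50 or more as a whole, the median stayed within -0.02 to 0.017 in every library. All medians are on the log2(value + 2) scale, which understates changes of low features.

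**Figure D1:**
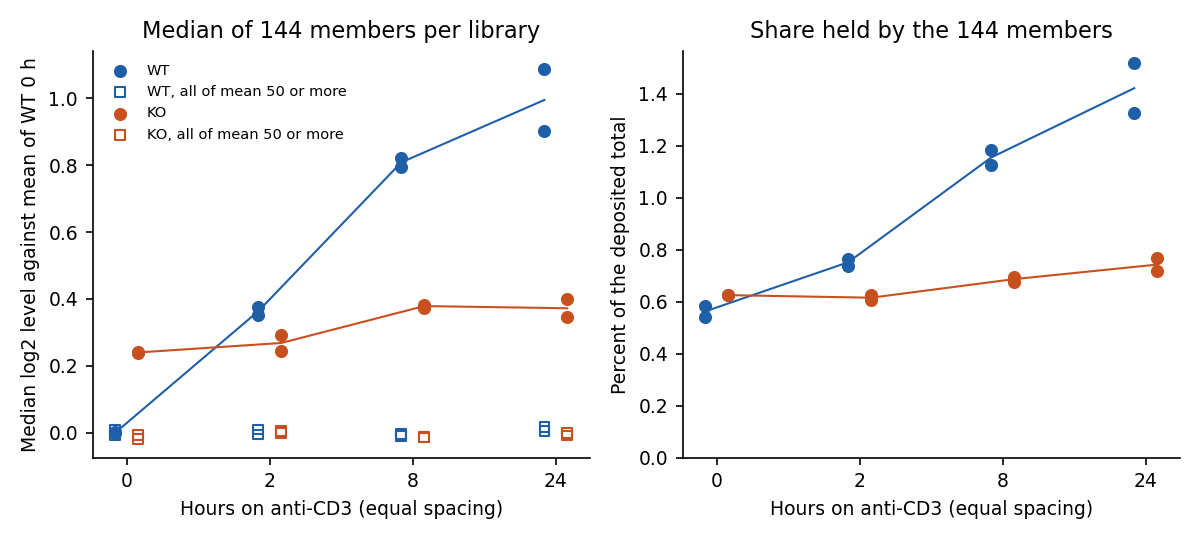
Left, the median log2 level of the 144 members in each of the 16 libraries against the WT mean of 0 h (filled circles; lines join the means of the 2 libraries), with the median of all features of mean 50 or more (open squares); right, the percent of the deposited total that the members held. Hours are drawn at equal spacing. WT circles climb to 1.09 and 0.90 at 24 h, while KO circles stay between 0.24 and 0.40, and the open squares stay near 0.

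Together the members held a small part of each library. Their share of the deposited total was 0.542% and 0.584% in WT at 0 h, 1.18% and 1.13% at 8 h, and 1.52% and 1.33% at 24 h. In KO it was 0.626% and 0.624% at 0 h, 0.697% and 0.677% at 8 h, and 0.768% and 0.718% at 24 h. The WT share at 24 h was therefore over 2 times that at 0 h, and the KO share at 24 h less than 1.5 times its own. Member means over the 16 libraries ran from 50.4 to 2417, with a median of 141, and the typical member was counted with 115 reads per library (median over members of their median over libraries).

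Most WT ratios were modest. The ratio of WT means at 8 h and 0 h had a median of 1.72; it was 3 or more in 15 members, from 2 to under 3 in 26 and under 2 in 103. Just inside the limit lay F142, F143 and F144 with ratios of 1.503, 1.501 and 1.5004, and the nearest 3 features outside it had 1.497, 1.497 and 1.496. The limit thus cuts through a continuous run of ratios. By the mean limit, the lowest members had means of 50.4, 52.5 and 53.1, and the highest features left out 49.6, 49.4 and 48.9. The number of members rests most on the first WT library of 0 h, the deeper of that pair: without it 361 features meet the rule, 120 of them members, and without the second 191, with 111 members.

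At 2 h both WT libraries lay above both of 0 h for 83 members, where 14.6% of features of mean 50 or more did so, and below them for 1, against 13.6%. This order rests on the WT libraries of 0 h that chose the members, so nothing is read from it.

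By the time of the highest WT mean, 12 members were highest at 2 h, 40 at 8 h and 92 at 24 h. The early class stood, by the median log2 difference from WT at 0 h, at 1.19 at 2 h, then 1.06 at 8 h and finally 0.80 at 24 h. The middle class had 0.39, 0.70 and 0.58, and the late class 0.28, 0.81 and 1.20. In 57 members both libraries of 24 h lay above both of 8 h, and in 23 both lay below, against 24.3% and 20.3% of features of mean 50 or more. The rule uses both times, so this too is a description. The median member had reached 44.3% of its 8 h log2 difference by 2 h, and 17 members stood at or above it by then.

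In KO the same 3 classes gave smaller values. WT values chose both the members and the classes, and KO values did not, so this is no test of a difference between genotypes. The early class had median log2 changes from KO at 0 h of 0.27, 0.24 and -0.044 at 2, 8 and 24 h. The middle class had 0.048, 0.047 and 0.047, close to 0 throughout. The late class had -0.031, 0.17 and 0.22. The 3 times share the KO libraries of 0 h. Of the 92 late members, 46 were also highest at 24 h in KO, and of the 12 early ones 4 were also highest at 2 h. Of the 40 middle ones, 14 were also highest at 8 h. Taken over all members, KO means were highest at 0 h in 23, at 2 h in 21, at 8 h in 41 and at 24 h in 59. No such counts are given for features outside the members, so no shared timing of the genotypes is read from these.

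**Figure D2:**
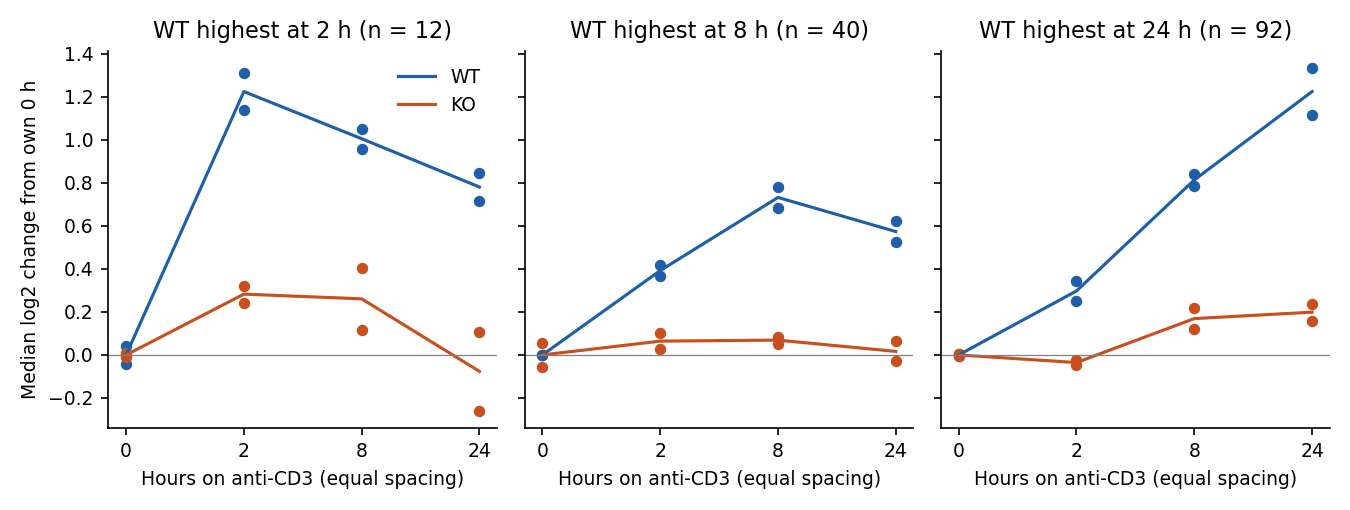
Median log2 change from the mean of the genotype's own 0 h libraries, for members whose WT mean was highest at 2 h (12), 8 h (40) or 24 h (92); each point is the median in 1 library and lines join the means of the 2 libraries. Hours are drawn at equal spacing. WT lines peak at the time that defines the panel, and KO points stay below 0.5 in each. WT values chose the members and the panels, so the gap between the lines is no test.

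The 4 largest ratios belong to members whose level is set by few libraries. F1 had 8.70 and 6.47 in WT at 0 h, 14.7 and 606.6 at 2 h, 1204 and 717.9 at 8 h and 12.1 and 20.6 at 24 h. All 8 KO libraries lay under WT replicate 2 of 24 h. F1 was high in both WT libraries of 8 h and in replicate 2 of 2 h, low in replicate 1 of 2 h, and back near its start at 24 h. F2 had 13.8 and 6.47 in WT at 0 h, 24.7 and 962.2 at 8 h and 19.0 and 21.8 at 24 h, so its ratio rests on the second WT library of 8 h. F3 had 1 and 0 reads in the WT libraries of 0 h, 3 and 5 at 8 h and 10 and 1 at 24 h, so its ratio rests on very few reads, and it owes its mean to 2072 reads in the second WT library of 2 h. F4 had 64.5 and 825.9 in WT at 8 h, 856.9 and 66.5 at 24 h and 1793 and 55.7 in KO at 24 h, and at most 83.3 in the other libraries. These 4 are the members of which 1 library holds over 25% of the 16-library sum. In every other member the share was at most 24.3%.

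Of the members of which no library holds over 25% of the sum, F5, in the row listed as ENSMUSG00000024112, had the largest ratio. Its normalised counts in WT were 88.0 and 106.7 at 0 h, 767.1 and 666.3 at 2 h, 635.8 and 825.2 at 8 h and 479.9 and 463.0 at 24 h. In KO they were 133.6 and 136.5 at 0 h, 420.0 and 271.2 at 2 h, 235.8 and 297.5 at 8 h, and 262.3 and 282.5 at 24 h. F5 was thus already high at 2 h in both genotypes and had come down from its height by 24 h in WT. All 6 stimulated KO libraries lay above both KO libraries of 0 h and below all 6 stimulated WT libraries. The WT libraries of 8 and 24 h chose F5, so the place of KO below them is no result.

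F9, in the row listed as ENSMUSG00000029723, took a slower course. It had 166.3 and 208.5 in WT at 0 h, 322.8 and 371.5 at 2 h, 897.1 and 669.7 at 8 h and 1089 and 854.9 at 24 h. In KO it had 178.8 and 260.4 at 0 h, 402.9 and 308.9 at 2 h, 565.4 and 422.0 at 8 h, and 511.1 and 567.6 at 24 h. The genotypes overlapped at 0 and 2 h, and KO lay below WT at 8 and 24 h. The mean of the KO libraries of 24 h was 2.46 times that of 0 h, against 5.19 times in WT. F9 was picked by its WT values of 0, 8 and 24 h, so nothing about the genotypes is read from those times.

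F6, F7, F8 and F10, the others of the 10 largest ratios, were each highest at 24 h in WT. They were picked by WT values of 0, 8 and 24 h, so the place of KO under WT at 8 and 24 h is no result. F6 had 161.2 and 265.1 at 0 h, 431.7 and 265.2 at 2 h, 1546 and 1020.0 at 8 h, and 1761 and 1201 at 24 h in WT. In KO it had 246.1 and 278.7 at 0 h, 210.0 and 227.5 at 2 h, 379.9 and 390.5 at 8 h, and 364.5 and 359.8 at 24 h. F6 in WT was thus several times its start by 8 h, and in KO it stayed well under that. F7 had 73.7 and 116.4 at 0 h, 262.0 and 263.4 at 2 h, 558.5 and 386.1 at 8 h, and 607.0 and 425.1 at 24 h in WT. In KO it had 101.5 and 109.8 at 0 h, 131.2 and 124.3 at 2 h, 179.0 and 164.5 at 8 h, and 136.7 and 130.5 at 24 h. In F6 and F7, every KO library of 8 and 24 h lay above those of 0 h and below those of WT at the same time. F8 had 34.8 and 27.5 at 0 h, 99.5 and 57.9 at 2 h, 150.6 and 139.7 at 8 h, and 196.3 and 193.7 at 24 h in WT. In KO it had 51.9 and 56.3 at 0 h, 51.4 and 55.0 at 2 h, 124.4 and 71.5 at 8 h, and 92.4 and 119.1 at 24 h. F10 had 60.4 and 77.6 at 0 h, 144.6 and 82.1 at 2 h, 260.5 and 248.5 at 8 h, and 332.5 and 326.6 at 24 h in WT. In KO it had 75.1 and 74.6 at 0 h, 81.0 and 93.4 at 2 h, 93.9 and 110.2 at 8 h, and 124.4 and 81.1 at 24 h. F8 and F10 in KO also stayed under every WT library of 8 and 24 h. Both KO libraries of 8 h and of 24 h lay above those of 0 h in F8, and all 6 stimulated KO libraries did in F10.

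**Figure D3:**
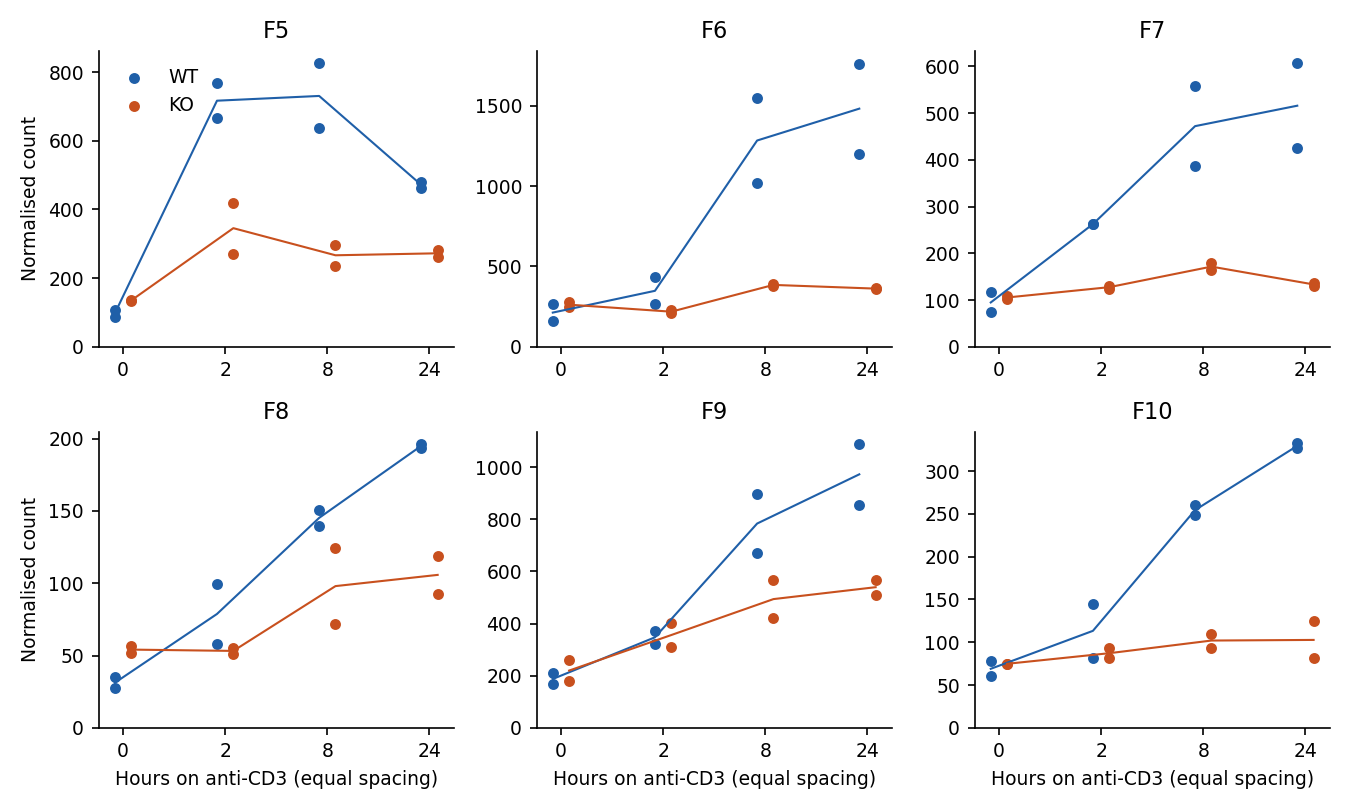
Normalised counts of F5 to F10 in all 16 libraries (points) with the mean of each pair (lines), WT and KO side by side at 0, 2, 8 and 24 h of anti-CD3, drawn at equal spacing. F5 is high from 2 h on in both genotypes, F6 to F10 are highest at 24 h in WT, and KO points stay below WT points at 8 and 24 h in each panel. WT values of 8 and 24 h chose these members, so that gap is no test.

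The 10 members with the highest means, which carry the most reads and the least counting error, were F14, F16, F28, F41, F46, F51, F61, F79, F81 and F135. F14 had 408.4 and 622.3 in WT at 0 h, 664.4 and 521.0 at 2 h, 1901 and 1374 at 8 h and 3561 and 2578 at 24 h, and its KO libraries ran from 506.3 to 729.1. F51 had 407.4 and 578.7 at 0 h, 404.5 and 566.5 at 2 h, 915.5 and 931.2 at 8 h, and 2049 and 1914 at 24 h in WT, and 396.3 to 602.5 over the KO libraries. In both, the WT libraries of 2 h overlapped those of 0 h, and those of 24 h stood at 5.96 and 4.02 times the mean of 0 h. F28 took its WT height by 8 h, with 584.4 and 656.2 at 0 h, 1692 and 1320.1 at 8 h and 1527 and 1324 at 24 h, while KO had 842.1 and 850.1 at 0 h and 1006 and 938.8 at 24 h. In F46 the KO libraries of 8 and 24 h also lay above those of 0 h, from 484.5 and 487.0 at 0 h to 689.9 and 605.1 at 8 h and 762.3 and 698.1 at 24 h, and every KO library lay below every WT library of the same time. In WT F46 had 672.0 and 646.5 at 0 h, 661.2 and 653.3 at 2 h, 1209 and 1346 at 8 h, and 1579 and 1548 at 24 h. Its KO log2 change at 24 h of 0.58 ± 0.11 (SE, limma adjusted p = 0.0619) did not pass, though it did with DESeq2. F135, the member with the highest mean, had 1610.0 and 1927 in WT at 0 h and 2759 and 2602 at 8 h, while KO had 2206 and 2172 at 0 h and 2209 and 2204 at 8 h. F16 had 734.4 and 678.9 in WT at 0 h and 2242 and 1758 at 8 h, while KO had 622.5 and 726.2 at 0 h and 858.0 and 680.9 at 8 h. In F135 and F16 the KO libraries of 8 h thus did not stand clear of those of 0 h. Those of WT stand clear in every member by the rule. The ratio of 8 h to 0 h in WT was 2.03 for F41, 1.66 for F79 and 1.65 for F81, against 1.05, 1.14 and 1.16 in KO. WT values of 0, 8 and 24 h chose all 10 members, so no difference between genotypes is read from these times.

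Whether the members also moved in KO was tested in KO libraries, which play no part in the fold and order conditions, with limma and Benjamini-Hochberg adjustment at 0.05 over 12391 features. All 144 members passed the filter on low values. The median KO log2 change of the members came to 0.011, 0.15 and 0.17 at 2, 8 and 24 h, where features of mean 50 or more had 0.0098, 0.0015 and 0.0053. The change was above 0 for 73 members at 2 h, 97 at 8 h and 99 at 24 h. At 2 h the members were thus centred where other features were, and at 8 and 24 h they were centred higher, by far less than the WT medians of 0.76 and 1.00 that the rule picked. Because the WT values were chosen and the KO values were not, the 2 sets of medians are not a test of a difference.

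Single members seldom passed the test in KO. At 2 h 1 member was called higher, against 0.00807% of all 12391 features. At 8 h 1 member was called higher, against 0.00807%, and at 24 h 2 were, against 0.0161%. In this fit they were the only features of the series called higher in KO at those times. DESeq2 called 6, 5 and 7 features in either direction at 2, 8 and 24 h, among them 2, 2 and 4 members. F70 at 2 h, F9 at 8 h, and F46 and F61 at 24 h were called by DESeq2 and not in this fit. With the 6 stimulated KO libraries averaged against those of 0 h, 2 members were called higher, against 0.0161%, again the only features called higher. No member was called lower by limma, edgeR or DESeq2 in any of the 4. At an unadjusted limma p under 0.05 there were 12 members higher (8.33%) and 8 lower at 2 h, 24 (16.7%) and 2 at 8 h, 25 (17.4%) and 5 at 24 h, and 24 (16.7%) and 2 for the average. Of all features, 2.58%, 3.39%, 3.53% and 3.54% were higher at that level in the same order, and 2.15%, 3.62%, 3.16% and 2.98% lower. Among features of mean 50 or more, from which the members come, 2.71%, 3.35%, 3.8% and 3.77% were higher, and 2.06%, 3.18%, 3.26% and 2.96% lower. The 4 comparisons share the KO libraries of 0 h.

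The members called in KO were F5 and F9. On the log2 scale F5 rose in KO by 1.31 ± 0.18 (SE, limma adjusted p = 0.00031) at 2 h, by 0.96 ± 0.18 (SE, limma adjusted p = 0.0385) at 8 h, by 1.00 ± 0.18 (SE, limma adjusted p = 0.0317) at 24 h, and by 1.09 ± 0.14 (SE, limma adjusted p = 0.000206) for the average of the stimulated libraries. The last kept its call in all 24 alternatives, with adjusted p of 6.52e-06 to 0.0277. Its call of 2 h was lost when KO replicate 1 of that time was left out (limma adjusted p = 0.0598). Its call of 8 h was lost when any of 7 libraries was left out, with limma adjusted p of 0.0543 to 0.236: WT replicates 1 and 2 of 2 h, both KO replicates of 0 h and of 24 h, and KO replicate 2 of 8 h. The call of 24 h was lost without WT replicate 1 or 2 of 2 h, either KO replicate of 0 h, or KO replicate 2 of 24 h, and limma's adjusted p then ran from 0.0589 to 0.17. F9 rose in KO by 1.31 ± 0.20 (SE, limma adjusted p = 0.0317) at 24 h and by 1.06 ± 0.17 (SE, limma adjusted p = 0.0352) for the average, and its change at 8 h of 1.17 ± 0.20 (SE, limma adjusted p = 0.0848) did not pass, though it did in 11 of 24 alternatives, DESeq2, a pseudocount of 0.5 and KO libraries alone among them. Both calls of F9 were lost without WT replicate 1 or 2 of 2 h, KO replicate 1 of 0 h, or either KO replicate of 24 h, and limma's adjusted p then ran from 0.0593 to 0.309 at 24 h and 0.0822 to 0.195 for the average. With the replicate number as a block (limma), F5 lost its calls at 8 and 24 h (adjusted p = 0.0572 and 0.0622) and F9 both of its own (0.0871 and 0.0949). The F5 call of 8 h was also lost with a pseudocount of 8, with no filter, with edgeR or with KO libraries alone, and the calls of F5 and F9 at 24 h with no filter or edgeR. Over these and the block the adjusted p ran up to 0.197 for F5 at 8 h, 0.168 for F5 at 24 h and 0.0871 for F9 at 24 h. The average of F9 was lost with edgeR too (adjusted p = 0.156).

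The order of the libraries was set beside that of features of mean 50 or more. Both KO libraries of 2 h lay above both of 0 h for 27 members (18.8%), where 19% of features of mean 50 or more did so, and below them for 31 (21.5%), where 15.9% did. At 8 h 46 members (31.9%) lay above and 13 (9.03%) below, against 17.3% and 16.5%. At 24 h 52 members (36.1%) lay above and 21 (14.6%) below, against 18.2% and 15.8%. All 6 stimulated KO libraries lay above both of 0 h for 17 members and below for 4, where 4.3% and 3.27% did. The members' share above thus matched that of other features at 2 h and exceeded it at 8 and 24 h, and their share below was larger at 2 h and smaller at 8 h.

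**Figure D4:**
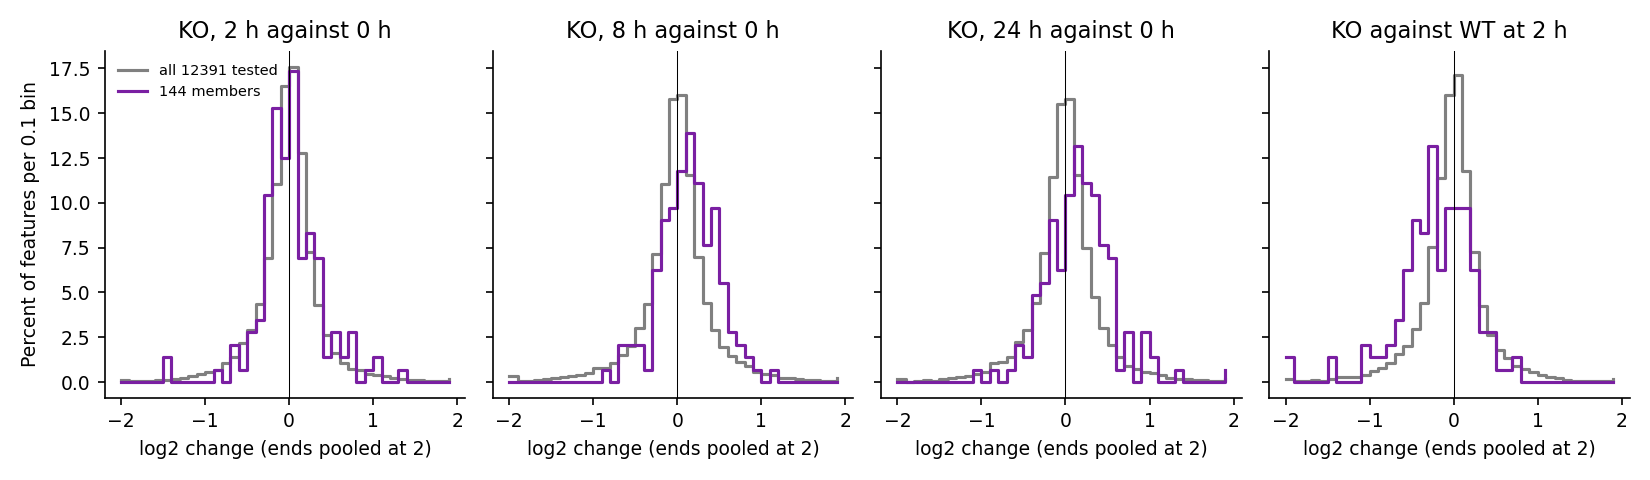
Distribution of the limma log2 changes over the 144 members and all 12391 tested features, in percent of features per 0.1 bin, for the 3 KO times against 0 h and for KO against WT at 2 h; values beyond 2 are pooled at the ends. The members' line lies over that of all features at 2 h in KO, is shifted to the right at 8 and 24 h, and to the left for KO against WT at 2 h.

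Put through the same fold and order conditions with KO libraries in place of WT, 66 features of mean 50 or more passed (0.787%). Of the members 11 passed, which is 7.64% of the members and 16.7% of the 66. Without the first KO library of 0 h 22 members passed, of 251 features, and without the second 20, of 204. The 11 were F5, F7, F8, F9, F15, F20, F42, F50, F57, F70 and F74, and those outside the first 10 were singled out after their values were seen. In 9 of the 11 the ratio of 8 h to 0 h was smaller in KO than in WT, as F20 with 1.51 and 2.63 and F42 with 1.54 and 1.98. F70, with ratios of 1.76 and 1.73, had 140.2 and 104.2 at 0 h, 300.2 and 198.1 at 2 h, 211.8 and 217.4 at 8 h, and 170.0 and 201.5 at 24 h in KO. In WT it had 125.9 and 130.9 at 0 h, 221.1 and 261.7 at 2 h, 189.6 and 254.7 at 8 h, and 263.7 and 265.9 at 24 h. F70 thus overlapped between the genotypes at 0, 2 and 8 h, and lay lower in KO at 24 h. F50, with ratios of 1.98 and 1.88, had 65.3 and 49.4 in KO and 133.2 and 122.6 in WT at 24 h.

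Set against the WT log2 difference of the same member, the median KO change was 15.2% at 8 h and 16.4% at 24 h. It was at least 50% in 22 members at 8 h and 17 at 24 h, above 100% in 3 and 5, and at or below 0 in 47 and 45. The rule chose the WT differences and not the KO changes, which favours shares under 100%. No difference between genotypes is therefore read from these shares. Across the 144 members the WT and KO changes had a Pearson r of 0.27 and a Spearman rho of 0.43 at 8 h, and 0.40 and 0.40 at 24 h. This is across features of the same 16 libraries, which are not independent replicates, and the rule cuts the WT range from below.

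**Figure D5:**
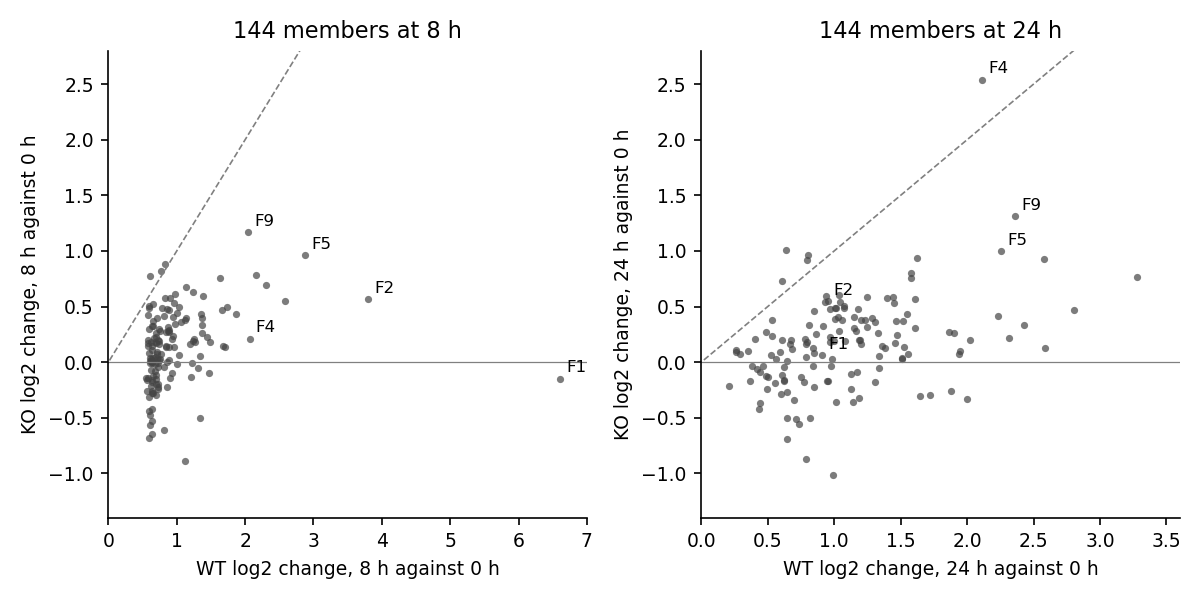
Log2 change at 8 h (left) and 24 h (right) against 0 h for each of the 144 members, WT on the horizontal and KO on the vertical axis, which have different scales; the dashed line marks equal changes. Nearly all points lie below the dashed line: KO exceeded WT in 3 members at 8 h and 5 at 24 h, among the latter F4, which is high in single libraries. The rule chose the WT changes, so the place of the points below the line is no result.

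The genotypes were compared at 2 h, where no library enters the fold and order conditions. The median log2 difference of KO from WT was -0.19 over the members and -0.0021 over features of mean 50 or more. KO was below WT in 95 members. Both KO libraries lay below both WT libraries for 56 members (38.9%), where 18.7% of features of mean 50 or more did, and above for 12, where 16.3% did. Limma called 7 members lower in KO, against 0.186% of all features, so that 7 of the 23 features called lower at that time were members. None was called higher by limma, edgeR or DESeq2, where limma called 0.0242% of all features higher. At an unadjusted limma p under 0.05, 4 members were higher and 29 lower, against 2.3% and 3.41% of all features and 2.47% and 3.8% of those of mean 50 or more. The 2 h libraries held 4151295 and 7547351 reads in WT and 4015483 and 5907998 in KO. By edgeR 7 members were lower, where it called 31 of all features in either direction, and by DESeq2 9, where it called 47. The DESeq2 count includes F1 and F3, which are each high in replicate 2 alone of the WT libraries of 2 h.

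The 7 members were F5, F7, F12, F15, F23, F39 and F61. F61, which has the most reads among them, had 1554 and 1454 in the WT libraries of 2 h and 913.0 and 956.8 in KO, a log2 difference of -0.68 ± 0.11 (SE, limma adjusted p = 0.00118). Its KO libraries of 0 h, 853.2 and 903.6, were also below those of WT, 1095 and 1152. F39 had 310.2 and 242.2 in WT and 113.0 and 157.5 in KO at 2 h, a difference of -1.03 ± 0.19 (SE, limma adjusted p = 0.00393), and 212.4 and 168.1 in WT and 131.3 and 114.0 in KO at 0 h. F61 and F39 were thus lower in KO before stimulation too. F15 had 391.9 and 323.7 in WT and 189.5 and 165.7 in KO at 2 h, a difference of -1.0 ± 0.20 (SE, limma adjusted p = 0.0141), and 85.0 and 114.8 in WT and 94.9 and 81.6 in KO at 0 h. F23 had 623.5 and 574.1 in WT and 327.6 and 348.1 in KO at 2 h, a difference of -0.82 ± 0.15 (SE, limma adjusted p = 0.00393), and 182.2 and 237.6 in WT and 241.7 and 213.9 in KO at 0 h. In F15 and F23 the genotypes overlapped at 0 h, and both were highest at 2 h in either genotype, with a smaller height in KO.

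Of the others, F5 differed at 2 h by -1.08 ± 0.18 (SE, limma adjusted p = 0.00118) and F7 by -1.03 ± 0.21 (SE, limma adjusted p = 0.0141). F12, the least abundant of the 7, had 138.3 and 80.3 in WT and 41.1 and 32.4 in KO at 2 h, a difference of -1.48 ± 0.33 (SE, limma adjusted p = 0.0484), and 29.2 and 35.6 in WT and 32.0 and 36.6 in KO at 0 h. The genotypes of F12 overlapped at 0 h and separated at 2 h. The calls lean on the libraries of 2 h. Without WT replicate 1 of that time, the members called include F1, F3 and F72, which are not among the 7. F1 and F3 are high in the WT replicate that then stands alone. With KO replicate 1 of that time left out 1 member was called (F5) of 13 features, with KO replicate 2 left out 3 of 27, with WT replicate 1 left out 4 of 22 and with WT replicate 2 left out 10 of 42. Left out in turn, WT replicate 1 of 2 h ended the calls of all 7 but F61, KO replicate 1 those of all 7 but F5, KO replicate 2 those of F5, F7, F12 and F15, and WT replicate 2 that of F7. The limma adjusted p then ran from 0.0622 to 0.155 for F5, 0.0829 to 0.161 for F7, 0.0991 to 0.415 for F15, 0.12 to 0.148 for F23 and 0.229 to 0.361 for F39, and was 0.0705 for F61. The call of F12 also ended without either WT library of 8 or 24 h or either KO library of 0 h (0.0525 to 1 over its 9 libraries, by limma) and with the replicate block (0.0546, by limma). With no filter on low values, limma no longer called F12, F7 (adjusted p = 0.16), F15 (0.114) or F39 (0.0549), and a pseudocount of 0.5 ended the call of F12 too, with limma adjusted p of at most 0.203 for F12 over these settings.

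At the other times the difference between genotypes contains WT libraries that chose the members, and is given without a test. At 0 h both KO libraries lay above both WT libraries for 60 members and below for 9, against 19.2% and 22.4% of features of mean 50 or more. At 8 h KO lay below for 111 and above for 1, against 22.9% and 19.8%, and at 24 h below for 112 and above for 4, against 27.2% and 21.9%. In 94 members KO lay below at both of these times, against 10.6% of features of mean 50 or more. Since WT libraries of these times chose the members, nothing is read from these counts. The median log2 difference of KO from WT came to 0.25, -0.52 and -0.63 at 0, 8 and 24 h.

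In 13 members (9.03%) both KO libraries of 8 h lay below both of 0 h, a smaller share than the 16.5% of features of mean 50 or more. In 9 (6.25%) those of 24 h did too, against 6.03% of features of mean 50 or more for both times. The 5 with the largest such difference at 8 h were F69, F108, F104, F22 and F138. F69 had 78.4 and 85.9 in KO at 0 h and 37.1 and 75.8 at 8 h, a difference on the log2 scale of -0.61 ± 0.30 (SE, limma adjusted p = 0.708). F108 had 80.6 and 61.9 at 0 h and 37.1 and 52.9 at 8 h, a change of -0.65 ± 0.32 (SE, limma adjusted p = 0.723). F104 had 66.2 and 71.8 and then 45.8 and 48.6, a change of -0.53 ± 0.29 (SE, limma adjusted p = 0.764). In F69 replicate 2 of 8 h stood close to the values of 0 h, and in F104 both replicates stood clear of them. F22 had 54.1 and 63.3 in KO at 0 h, 50.2 and 32.9 at 8 h and 48.0 and 49.4 at 24 h, a change of -0.50 ± 0.29 (SE, limma adjusted p = 0.781) at 8 h, while its WT libraries had 37.9 and 32.3 at 0 h, 72.3 and 53.2 at 2 h, 82.1 and 101.9 at 8 h, and 144.4 and 124.9 at 24 h. F138 had 67.3 and 71.8 at 0 h and 45.8 and 55.8 at 8 h in KO, a change of -0.44 ± 0.29 (SE, limma adjusted p = 0.811). None of the 5 passed the test. All 5 are among the less abundant members, with means of 56.4 to 80.1, and in all 5 the KO libraries of 0 h lay above the WT mean of 0 h. The rule, with WT at 0 h as its low side, and the choice of these 5 both favour that order, so it is no result.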

How the data were processed

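The files hold 1 value per feature and library. Per the file headers the values are counts, and the submitters' processing notes name GRCm38.p6, DESeq2, HTSeq and STAR 2.6.0a without their roles. The deposited signal is not raw: each library's values are whole multiples of its smallest value (within 0.01 reads), so that the authors' values are read counts divided by 1 factor per library, which no source states. Whole reads were recovered from them. 1 duplicate of 27803 rows was dropped. How strand, multi-mapped and overlapping reads were counted is not stated, so features that share reads cannot be told apart.

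Groups were taken from the labels. Limma 3.58.1 (R 4.3.3, trended and robust) was fitted on log2(value + 2) over all 16 libraries with a mean per group and 8 residual degrees of freedom. Tests covered features that reached 10 in 2 or more libraries, with Benjamini-Hochberg adjustment over 12391 features at 0.05. edgeR 4.0.16, DESeq2 1.42.0, other pseudocounts, filters, scalings, a replicate block and leaving out each library were alternatives. Figures were drawn with matplotlib 3.10.9.

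The members and lists were chosen with earlier results of these data known. Given with values are the 10 members with the largest WT ratio, the 10 with the highest mean, those called in a test, the 5 with the largest drop in KO at 8 h, and the 3 features on either side of the ratio limit.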

Additional observations from a re-analysis of the deposited data

Results flagged for a closer look

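Some members stood lower in KO after stimulation than before it, while the rule puts all members higher in WT. In 13 members both KO libraries of 8 h lay below both of 0 h, in 21 both of 24 h did, and in 9 those of both times did, which came to notice because the genotypes moved in opposite ways. The shares of features of mean 50 or more with such an order in KO were 16.5% at 8 h, 15.8% at 24 h and 6.03% at both, against 9.03%, 14.6% and 6.25% of the members, so the members' shares are below or near them. The difference between genotypes was not tested, since the WT direction was chosen. The times share the KO libraries of 0 h.

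The 9 members had these KO log2 changes at 8 h and 24 h. F22 had -0.50 at 8 h and -0.26 at 24 h. F52 had -0.14 at 8 h and -0.17 at 24 h. F69 had -0.61 at 8 h and -0.23 at 24 h. F77 had -0.20 at 8 h and -0.30 at 24 h. F83 had -0.12 at 8 h and -0.42 at 24 h. F85 had -0.29 at 8 h and -0.34 at 24 h. F104 had -0.53 at 8 h and -0.37 at 24 h. F137 had -0.14 at 8 h and -0.24 at 24 h. F138 had -0.44 at 8 h and -0.51 at 24 h. None of the 18 changes passed limma's test after adjustment, and no member was called lower in KO by edgeR or DESeq2.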

How the results depend on the processing

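No called value changed direction in any alternative run. The cause was not tested where a count changed, other than by a change of the rule itself. The number of members was 350 with a fold limit of 1.3, 41 with a limit of 2, 217 with a mean of 25 and 87 with a mean of 100, and 148 to 361 without 1 library at a time. Judging the mean without a feature's largest library, chosen after seeing the data, left 139. The KO count of the same conditions was 22 with a fold limit of 1.3 in KO, 1 with a limit of 2, and 8 to 22 without 1 library.

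Members called higher in KO at 2 h numbered 2 with DESeq2, and 0 to 2 without 1 library. At 8 h they numbered 2 with a pseudocount of 0.5 or DESeq2, 0 with a pseudocount of 8, no filter or edgeR, and 0 to 2 without 1 library. At 24 h they numbered 0 with no filter or edgeR, 4 with DESeq2, and 0 to 3 without 1 library. For the average of stimulated libraries they numbered 1 with edgeR, and 1 to 3 without 1 library. Members lower in KO at 2 h numbered 3 with no filter, and 1 to 10 without 1 library. Over all features, without 1 library limma called 1 to 10 at 2 h, 1 to 22 at 8 h, 0 to 21 at 24 h, 1 to 15 for the average and 13 to 42 for KO against WT at 2 h, so members were not the only features called in each alternative.

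With the replicate number as a block, the calls numbered 1 at 2 h, 0 at 8 h, 0 at 24 h, 1 for the average and 6 for KO against WT at 2 h. The numbers are not shown to pair libraries. For each group the log2 difference between replicates 1 and 2 was taken per tested feature. These differences correlated between groups by -0.075 to 0.17, with a median of 0.020.

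The median KO change was 0.33 at 8 h and 0.27 at 24 h for the members of fold 2 or more, and 0.18 at 8 h for those of mean 100 or more. Without 1 library it was -0.027 to 0.040 at 2 h, 0.12 to 0.16 at 8 h and 0.11 to 0.20 at 24 h. The 4 members held by single libraries did not move the medians at 8 and 24 h.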
